A study of Mus musculus with 9 samples.

Results

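The 9 genes S1pr1, Klf2, Il7r, Foxo1, Foxp1, Tob1, Btg1, Dgka and Ly6c2 were taken by name as genes of naive T cell homing and quiescence, out of 22380 protein-coding genes in the annotation. H3K27ac, the acetylation of histone H3 that marks active promoters and enhancers, was mapped with ChIP-seq on naive splenic CD8+ T cells of mice. WT cells were compared with cells lacking Tcf1 and Lef1 (dKO), to see how these transcription factors bear on the chromatin of mature CD8+ T cells. Mice of both genotypes were adults of either sex on the C57BL/6 background and carried hCD2-Cre, a transgene active mostly in mature peripheral T cells, together with a Rosa26 GFP reporter. The dKO mice had floxed alleles of Tcf7, which encodes Tcf1, and of Lef1, whereas WT mice had the intact genes. As Cre did not act in every cell, GFP served to pick those in which it had, and cells of both genotypes were sorted as GFP+ TCRbeta+ CD8+ cells with low to medium CD44 and a naive surface phenotype. There were 4 WT and 3 dKO H3K27ac samples and 1 input sample per genotype, 9 in all. The deposited data were 1 list of H3K27ac islands per genotype, called on the pooled replicates, and no value per mouse was analysed.

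A naive T cell circulates between blood and lymph nodes and stays out of the cell cycle until it meets antigen. Egress from lymphoid organs runs through the receptor encoded by S1pr1, whose gene is switched on by the transcription factor Klf2, and survival in the resting state needs interleukin-7, sensed through the receptor chain encoded by Il7r. Foxo1 is a transcription factor that drives Klf2 and Il7r, and Foxp1 is a forkhead factor known to hold naive T cells quiescent. Tob1 and Btg1 belong to a family of antiproliferative proteins that bring the CCR4-NOT deadenylase to mRNAs. Dgka encodes a kinase that consumes diacylglycerol and thereby damps T cell receptor signals. Ly6c2 encodes a small surface protein of the Ly6 family carried by many CD8+ T cells.

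For each gene, the islands that shared at least 1 bp with a window from the gene body to 50 kb upstream of the transcription start site (TSS) were collected. Their read counts were scaled by the total island counts of the list, 82668007 in WT and 57665047 in dKO. The ratio is the log2 of scaled dKO to scaled WT counts. Positions relative to the TSS are in kb, negative upstream. With 1 list per genotype there was no replicate check and no p-value, and the 95% intervals cover counting error only. Since the pools hold many cells, less acetylation per cell and fewer cells carrying the mark cannot be told apart. The 9 windows held 69 WT islands with 266351 counts and 88 dKO islands with 156693 counts. The islands of the 2 lists were cut differently, with 65563 in WT and 82213 in dKO over the genome, and the sparsest island of the 9 windows had 101 counts per kb in WT and 75.9 in dKO. CD8 T cell markers (Cd8a, Cd8b1, Cd3e, Cd3d, Cd3g, Thy1, Lck) all had promoter islands in both lists, at 274 to 461 counts per kb in WT and 218 to 301 in dKO. Of 11 markers of other cells, 9 had promoter islands, at 108 to 305 counts per kb in WT and 86.6 to 212 in dKO, and Ncr1 and Hba-a1 had none. Ms4a1, Lyz2, Csf1r and Emr1 lay lowest, at up to 126 in WT, and Cd79a and Klrb1c highest. Whether other cells in the sort contributed to the values below was not tested.

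Il7r had the lowest ratio of dKO to WT H3K27ac by the counts of whole regions and in the whole region at the promoter. Klf2 had more H3K27ac in dKO by the counts of its window, its whole regions and its promoter. By promoter islands alone, S1pr1 was lowest at -1.87, where the WT island was cut in dKO, and Il7r was at -0.92. By window counts, 8 of the 9 ratios were below 0, as were 52.6% of the 16487 genes that had islands of both genotypes. The median was -0.31, against -0.03 for all genes. A ratio of at least 1.5 either way, or 0.58 on the log2 scale, was called changed. S1pr1 at -1.26, Btg1 at -0.70 and Il7r at -0.60 were called lower, 3 of 9 beside 11.5% of all genes, and none was called higher, beside 11.5% of all genes. Il7r lay just inside this limit, and the next gene, Foxo1, was at -0.33. The 9 genes were chosen with earlier results of these data known, so setting them beside all genes is not an independent comparison.

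The window counts of S1pr1 and Btg1 depended on where an island ended. An island was counted whole if it reached into the window, so that a long WT island was counted in full while its dKO counterpart, cut into pieces, lost the piece outside the window. Therefore the islands of both lists were merged into regions, and all islands of every region touching the window were summed in both lists. By this region count, Il7r was lowest at -0.56 with an interval of -0.60 to -0.53, followed by Btg1 at -0.45, Ly6c2 at -0.28, Tob1 at -0.25 and Dgka at -0.24. S1pr1 was at -0.14, Foxo1 at -0.12, Foxp1 at -0.10 and Klf2 at 0.32. The intervals of S1pr1 (-0.16 to -0.11), Foxo1 (-0.15 to -0.09) and Foxp1 (-0.12 to -0.09) overlapped, as did those of Ly6c2 (-0.33 to -0.23), Tob1 (-0.29 to -0.21) and Dgka (-0.28 to -0.21). None of the 9 was called lower by region counts, beside 9.27% of all genes, and none higher, beside 7.05%. The median was -0.24, against -0.02 for all genes.

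Counts per kb of island cover gave a narrower range. The 9 genes ran from -0.39 for Dgka to 0.20 for Klf2, with a median of -0.24 against -0.16 for all genes. Per kb of whole regions, Btg1 was lowest at -0.43, followed by Il7r at -0.40 and Dgka at -0.39. None was called lower per kb, beside 9.28% of all genes, and none higher, beside 0.425%. In total, 8 of 9 ratios per kb were below 0, and so were 79.4% of all genes, so the common direction of the 9 was also that of most genes by this measure.

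**Figure D1:**
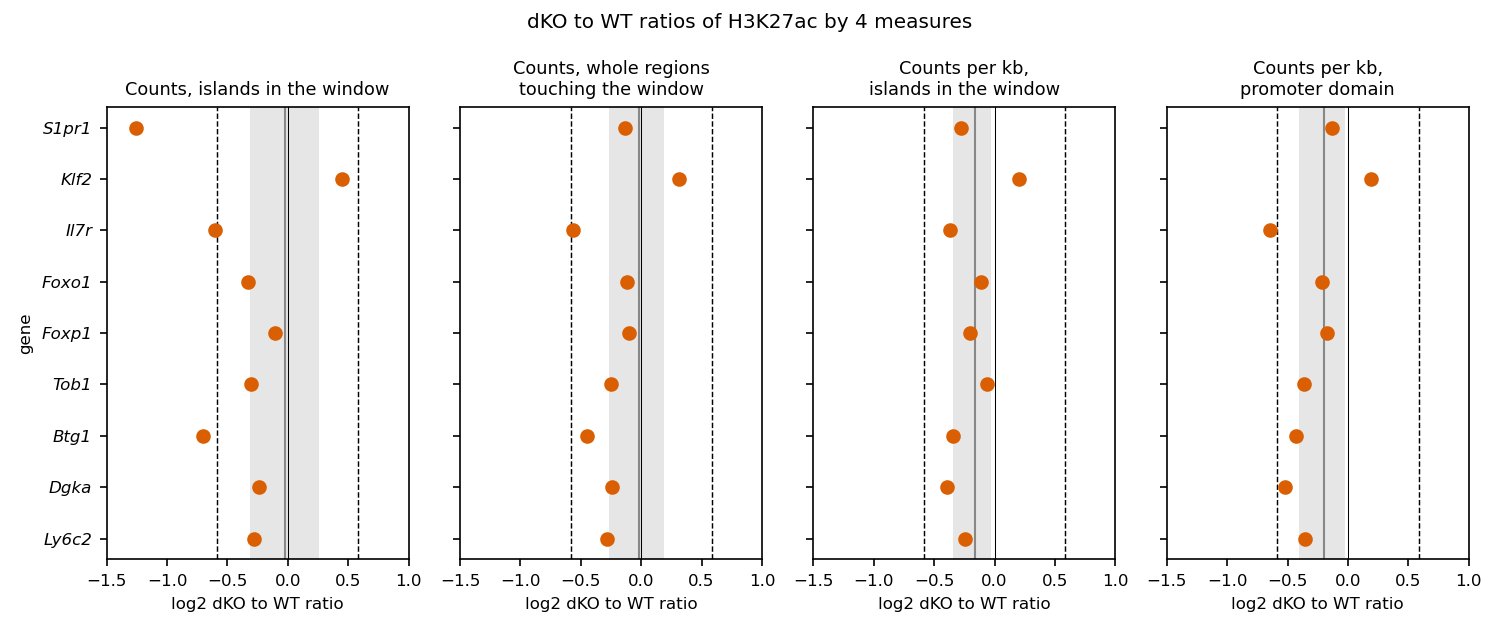
The plot of dKO to WT ratios gives each of the 9 genes (vertical axis) by 4 measures, on a log2 axis. Points are 1 ratio of pooled lists each, the grey band and line give the middle 50% and the median of all protein-coding genes, and dashed lines mark a ratio of 1.5. S1pr1 moves from -1.26 by window counts to -0.14 by whole regions, while Klf2 stays above 0 and Il7r stays at -0.37 or lower in all 4 panels.

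S1pr1 (chr3:115413351-115417973, minus strand, mm9) lay inside a broad acetylated domain. In WT, a single island of 54.4 kb with 27227 counts ran from -9.63 to 44.8 kb relative to the TSS, far past the end of the gene. In dKO, the same stretch was covered by an island of 14 kb with 5182 counts around the gene and a second of 39.8 kb with 11935 counts that ended just short of the gene window. Both lists began and ended this domain at the same positions, chr3:115373201-115427600. Summed over the domain, dKO had 17117 counts, or 318 counts per kb against 500.5 in WT, a ratio of -0.15 with an interval of -0.18 to -0.12. The window counts, 34849 in WT and 10179 in dKO, left out the second dKO island. Upstream, the distal islands held 7622 counts in WT and 4997 in dKO, a ratio of -0.09. The distal regions were close to even, with ratios of -0.11 for the one that began at -10.8 kb and -0.06 for the one that began at -38.6 kb.

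Klf2 (chr8:74842932-74845555, plus strand) was the gene with more H3K27ac in dKO. Its promoter sat in 1 unbroken island in each list, 70.2 kb with 36540 counts in WT and 72.2 kb with 30008 counts in dKO. Both began at -18.9 kb from the TSS and ran 51.3 and 53.3 kb past it, also over the promoter of Gm10282. At 520.5 counts per kb in WT and 415.6 in dKO, the scaled density was higher in dKO, with a ratio of 0.24 for counts (interval 0.21 to 0.26) and 0.19 per kb. Of 13367 genes with such a domain in both lists, 94.0% had a lower ratio per kb. A second region upstream, chr8:74762801-74823400, held 13441 counts in 3 WT islands and 13392 in a single dKO island of 60.6 kb, a ratio of 0.51 for counts and 0.48 per kb. This region also covered the promoter of Ap1m1, which encodes a clathrin adaptor subunit. Over the window, WT had 45555 and dKO 43400 counts, and the ratio was 0.45 with an interval of 0.43 to 0.47. When islands reaching other promoters were left out, the joined dKO island dropped out while the shorter WT islands stayed, and the window ratio turned to -0.08.

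Il7r (chr15:9435916-9459631, minus strand) had less H3K27ac in dKO at its promoter and at 1 upstream region, and ratios near 0 at most of the small islands between them. The promoter region, chr15:9452001-9466000, held 7540 counts in 1 WT island and 2985 counts in 2 dKO islands, or 538.6 and 240.7 counts per kb. The ratio was -0.82 with an interval of -0.88 to -0.76, and -0.64 per kb. The upstream region, chr15:9491201-9517200, starting at -31.6 kb, held 9331 counts in WT and 4636 in dKO, a ratio of -0.49 (interval -0.54 to -0.44) and -0.37 per kb. Its main WT island was continuous over 23.2 kb with 9033 counts, whereas dKO had pieces of 5.4, 0.4 and 13.4 kb with 960, 74 and 3220 counts.

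Of the islands between the promoter and this region, 3 had borders within 400 bp in both lists, and these can be compared at nearly equal width. At -18.4 kb, 379 counts in WT and 283 in dKO gave 0.10 with an interval of -0.13 to 0.32. At -24.4 kb, 522 and 322 counts gave -0.18 with an interval of -0.38 to 0.03, and at -27.2 kb, 591 and 422 counts gave 0.03 with an interval of -0.15 to 0.22. All 3 intervals held 0. A further small region at -12.6 kb had 531 counts in WT and 217 in dKO, at -0.77, but was 4.2 kb wide in WT against 2.2 kb in dKO, and its ratio per kb was 0.16. Scaled to CPM of the island total, the 7 regions that touched the window summed to 233 in WT and 158 in dKO, and the promoter and far upstream regions together made up 95.6% of the difference.

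Most of the Il7r locus also lay in a stretch of 114.4 kb, chr15:9440601-9555000, that the study called a super-enhancer, a long run of neighbouring acetylated islands. The study tested its super-enhancers on the separate replicates and called this one stronger in WT. In the pooled lists, this stretch held 24210 counts in WT and 12409 in dKO, a ratio of -0.44 with an interval of -0.48 to -0.41. Of its 11 regions, 8 were below 0, of which 5 with intervals wholly below 0, and no region had an interval wholly above 0. The region farthest upstream, beyond -91.8 kb, had a ratio of 0.12 with an interval of -0.07 to 0.30. Since that stretch was chosen on these samples, its direction is not independent evidence.

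Foxo1 (chr3:52072259-52154031, plus strand) was lower in dKO around its 5′ end and closer to even farther along the gene. A domain of 70.6 kb, chr3:52056601-52127200, held 19254 counts in WT and 11147 in dKO, a ratio of -0.27 with an interval of -0.30 to -0.24. Within it, the island over the TSS was 23.8 kb wide with 10272 counts in WT and 22.4 kb wide with 5581 counts in dKO, which gave -0.36 for counts and -0.27 per kb. The next region, toward the 3′ end of the gene from 55.5 kb downstream of the TSS, had 4557 and 2994 counts at -0.09. The last region, which began in the 3′ end of the gene, had 3670 counts in WT and 2610 in dKO, at 0.03 with an interval of -0.05 to 0.10. It was 1 island in WT and 3 in dKO, of which 2 with 1242 and 1056 counts lay outside the window. The window ratio of -0.33 became -0.12 over whole regions, which took in these 2 and an island farther upstream in each list, with 355 counts in WT and 472 in dKO. Upstream, islands were small in both lists. Of the window's islands, 8 of 9 in WT and 10 of 14 in dKO, or 88.9% and 71.4%, overlapped an island of the other list, beside 85.1% and 73.8% of the whole lists.

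Foxp1 (chr6:98875332-99216526, minus strand), the longest of the 9 genes, carried 23 islands in WT and 31 in dKO. They held 60341 and 39175 counts, and the ratio was -0.10 with an interval of -0.12 to -0.09. Promoter islands, with 27698 and 12915 counts, were at -0.58, and distal islands, with 32643 and 26260 counts, at 0.21. This split rests in part on island borders, since pieces of the WT island over the 5′ end were taken as distal in dKO. Around the 5′ end, a domain of 130.8 kb (chr6:99159401-99290200) had 33938 counts in 2 WT islands and 20399 in 6 dKO islands, at -0.21 and, per kb, -0.18. Farther into the gene, single regions went both ways. A region 267 to 286 kb downstream of the TSS had 1665 counts in WT and 1925 in dKO, at 0.73 with an interval of 0.63 to 0.82, but its island was 10.4 kb wide in WT and 18.4 kb wide in dKO, and the ratio per kb was -0.09. The region over an internal TSS near 232 to 243 kb had 2889 and 1431 counts, at -0.49 and -0.52 per kb. Other regions at internal TSSs went both ways. That at chr6:98994601-98997800 had 149 and 295 counts, at 1.51 but -0.17 per kb. That at chr6:99113601-99143000 had 5222 and 3249 counts, at -0.16. Those with 746 and 245 counts were found in dKO alone. Of the islands, 20 of 23 in WT and 26 of 31 in dKO, or 87.0% and 83.9%, overlapped an island of the other list, against the same 85.1% and 73.8% of all islands.

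Tob1 (chr11:94072768-94076809, plus strand) gave the cleanest comparison of a promoter, since its island had the same borders in both lists, chr11:94071001-94074200. Over these 3.2 kb there were 2262 counts in WT and 1229 in dKO, or 706.9 and 384.1 counts per kb, the highest WT density of any island in the 9 windows. The ratio was -0.36 with an interval of -0.46 to -0.26. Behind it, the distal islands were sparse and wide, with 8762 counts over 58.2 kb in WT and 4981 over 48.6 kb in dKO, a ratio of -0.30 for counts and -0.04 per kb. The region that began at -2.37 kb had a ratio of 0.06 and the next, at -7.57 kb, a ratio of -0.04, with both intervals holding 0. The third and widest, chr11:93990601-94038600, had 7002 counts in WT and 3807 in dKO, at -0.36 with an interval of -0.42 to -0.30, and at -0.08 per kb.

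Btg1 (chr10:96079635-96085447, plus strand) sat in a domain of 101.6 kb, chr10:96018401-96120000, that was acetylated nearly end to end in both lists. It was made of 3 islands with 39940 counts in WT and 4 islands with 20411 counts in dKO, covering 100.2 and 98.8 kb. The density was 399 counts per kb in WT and 207 in dKO, a ratio of -0.45 with an interval of -0.47 to -0.42, and -0.43 per kb. In WT, a dense island of 62.2 kb at 501 counts per kb over the promoter was set apart from a sparser one of 33.4 kb at 236 counts per kb upstream. In dKO, a single island of 74.8 kb at 224 counts per kb spanned both, so promoter and distal counts could not be compared for this gene. The window ratio was -0.70 with 39053 and 16781 counts, since 3 dKO islands of the domain lay outside the window against 1 in WT.

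Dgka (chr10:128157197-128181112, minus strand) had less H3K27ac in dKO at its promoter, and its upstream regions went both ways. The promoter region, chr10:128175801-128195200, held 10087 counts in 1 WT island and 4705 in 2 dKO islands, or 520 and 253 counts per kb. The ratio was -0.58 with an interval of -0.63 to -0.53, just short of the limit of 1.5, and -0.52 per kb. This region also covered the promoter of Wibg, so its counts cannot be assigned to Dgka alone. Of the 4 upstream regions in both lists, the nearest was at 0.33 for 677 and 594 counts with an interval of 0.17 to 0.49, and the others were at 0.02, -0.26 and -0.08. One island inside the gene body, 5.4 kb with 457 counts, was found in dKO alone. By window counts, promoter islands were at -0.78 and distal islands at 0.23, and both added to -0.24. This split rests in part on island borders, since dKO cut the stretch of the WT promoter island. A dKO piece of 5.8 kb with 615 counts was thereby taken as distal. The distal sums also held islands over the promoters of Mmp19, 1110012D08Rik and Dnajc14.

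Ly6c2 (chr15:74938590-74942114, minus strand) had an H3K27ac domain of 19.4 kb, chr15:74937801-74957200, with 5620 counts in 3 WT islands and 3101 counts in 1 dKO island. The density was 316 counts per kb in WT and 172 in dKO, and the ratio was -0.34 with an interval of -0.40 to -0.27. Split into promoter and distal islands, the gene gave 1.83 and -1.47, since the dKO island joined what were a promoter island of 4.8 kb with 1247 counts and 2 distal islands of 8.6 and 4.4 kb with 3801 and 572 counts in WT. The Ly6 genes are close paralogs and only uniquely mapped reads were kept. Read length is not given in the sources used here. At an assumed length of 50 bases, of the words in this domain 76.1% occurred once in the genome, against 96.4 to 99.0% in the promoter domains of the other 8 genes.

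**Figure D2:**
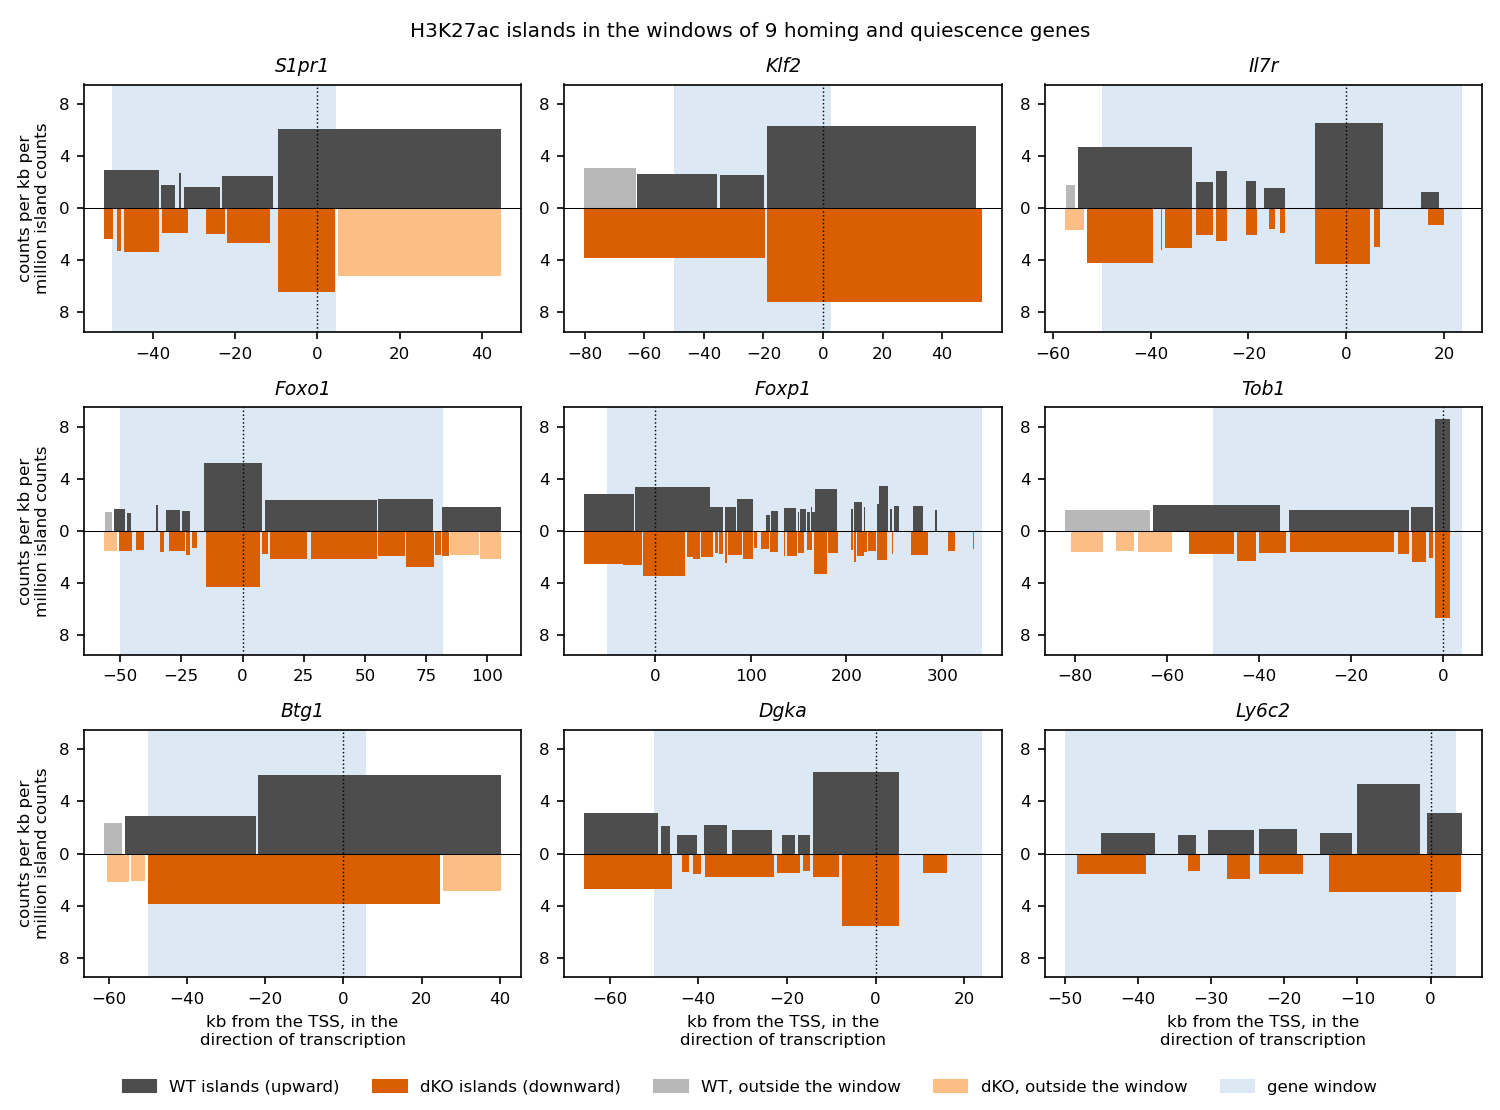
The island maps show, for each gene, WT islands upward and dKO islands downward, by kb from the TSS in the direction of transcription (horizontal) and counts per kb as CPM of the island total (vertical). Pale bars are islands of the same regions outside the blue gene window. S1pr1 shows the dKO island of 39.8 kb just outside the window, and Klf2 the long island that is denser in dKO.

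Ly6c2 and further Ly6 genes lay in 1 stretch of 325 kb, chr15:74665401-74990400, that the study also called as a super-enhancer. By its test on the separate replicates, the study called this one stronger in dKO. Over the whole stretch, 50254 counts in WT and 37594 in dKO gave a ratio of 0.10 with an interval of 0.08 to 0.12. Of its 20 regions, 12 were above 0 and 8 below, 9 with intervals wholly above 0 and 6 with intervals wholly below. The region of Ly6e was at 0.20, that of Ly6a and Ly6i at 0.03, that of Ly6c1, the closest relative of Ly6c2, at 0.54 with an interval of 0.42 to 0.67, and that of 2010109I03Rik at 1.01. Per kb, Ly6c1 was at 0.12 and 2010109I03Rik at 0.01, since their dKO islands were wider. The Ly6c2 domain was at -0.34, opposite to the direction called for the stretch. Upstream of it, 2 small regions that began at -24.1 and -31.5 kb had ratios of -0.91 and -0.66 with per kb values of 0.09 and -0.08. The median of the other 19 regions was 0.09. As above, a stretch chosen on these samples gives no independent evidence of direction, and a difference between neighbouring regions has no replicate check.

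**Figure D3:**
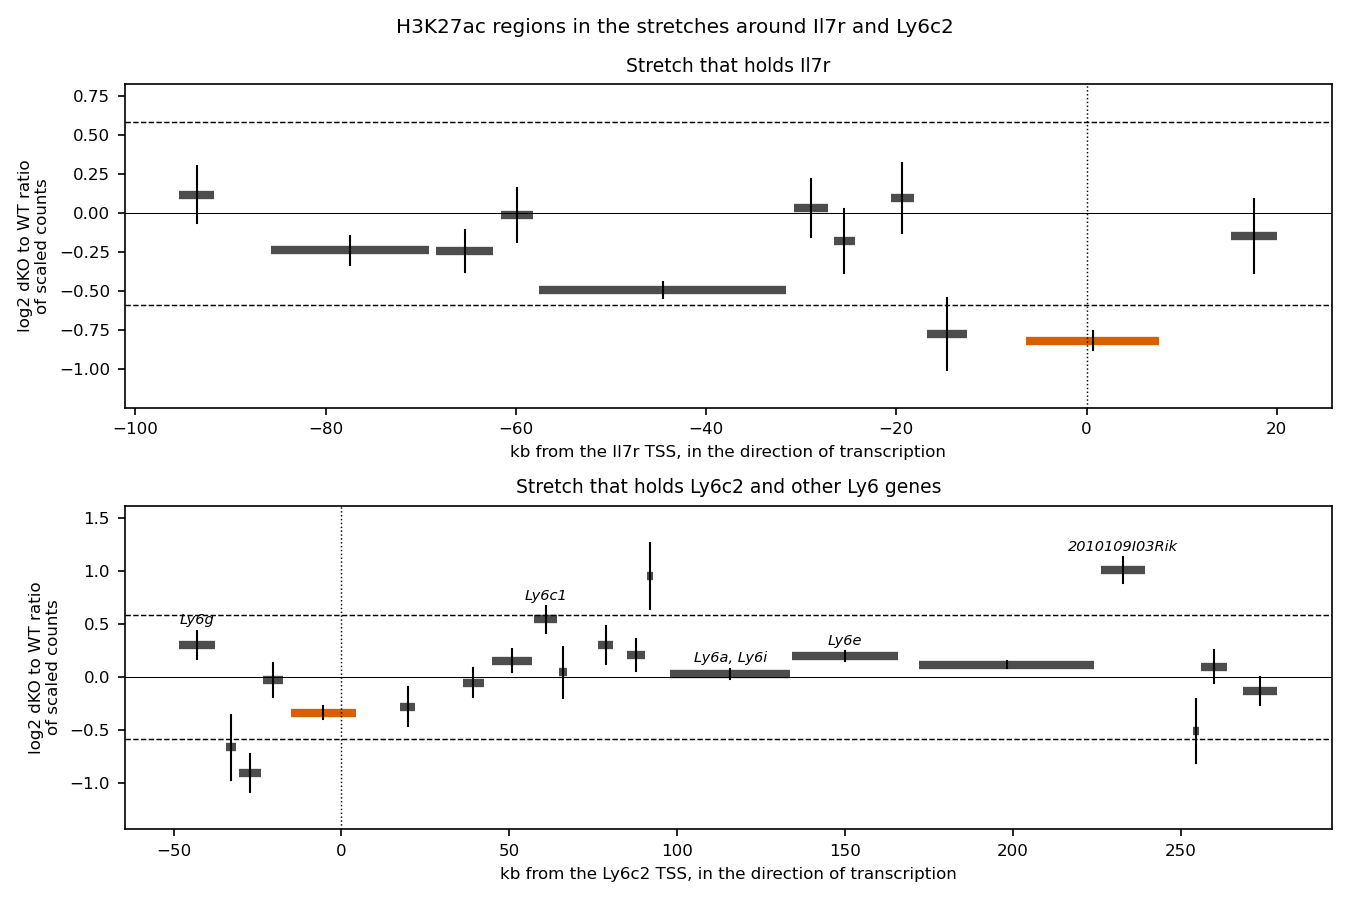
The plot of regions in the stretches around Il7r (top) and Ly6c2 (bottom) gives the log2 dKO to WT ratio of scaled counts against kb from the TSS in the direction of transcription. Horizontal bars are regions drawn to width, with that of the named gene in orange, vertical lines are 95% counting intervals, and dashed lines mark a ratio of 1.5. Il7r's own region lies lowest in its stretch at -0.82, and Ly6c2 lies at -0.34 while Ly6c1 lies at 0.54.

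The regions at the 5′ end of the genes, called promoter domains here, allowed all 9 genes to be compared over matched stretches. The promoter islands of 7 genes were dense in WT, above those of 75.2% of genes at Foxo1, 85.5% at Il7r and 94.3% at Tob1. The other 2 were Foxp1, above 43.5% of genes, and Ly6c2, above 41.4%. The widths of the domains ran from 3.2 kb at Tob1 to 130.8 kb at Foxp1, and covered widths differed little between lists, at a median log2 ratio of -0.02. Per kb, the order was Il7r at -0.64, Dgka at -0.52, Btg1 at -0.43, Tob1 at -0.36, Ly6c2 at -0.35, Foxo1 at -0.22, Foxp1 at -0.18, S1pr1 at -0.13 and Klf2 at 0.19. By counts the order was the same, and the counting intervals overlapped for the neighbours Btg1 and Tob1, Tob1 and Ly6c2, Ly6c2 and Foxo1, and Foxo1 and Foxp1. Per kb, 1 of 9, Il7r, was called lower, beside 12.7% of genes, and none higher, beside 0.561%. By counts, Il7r alone was called lower, beside 10.8% of genes, and none higher, beside 3.31%. The median per kb was -0.35 against -0.20 for all genes, and 8 of 9 were below 0, as were 77.8% of all genes. Hence 1 called gene in 9 was close to the share of all genes, and the placing of Il7r, with 10.2% of genes below it, was not extreme.

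**Figure D4:**
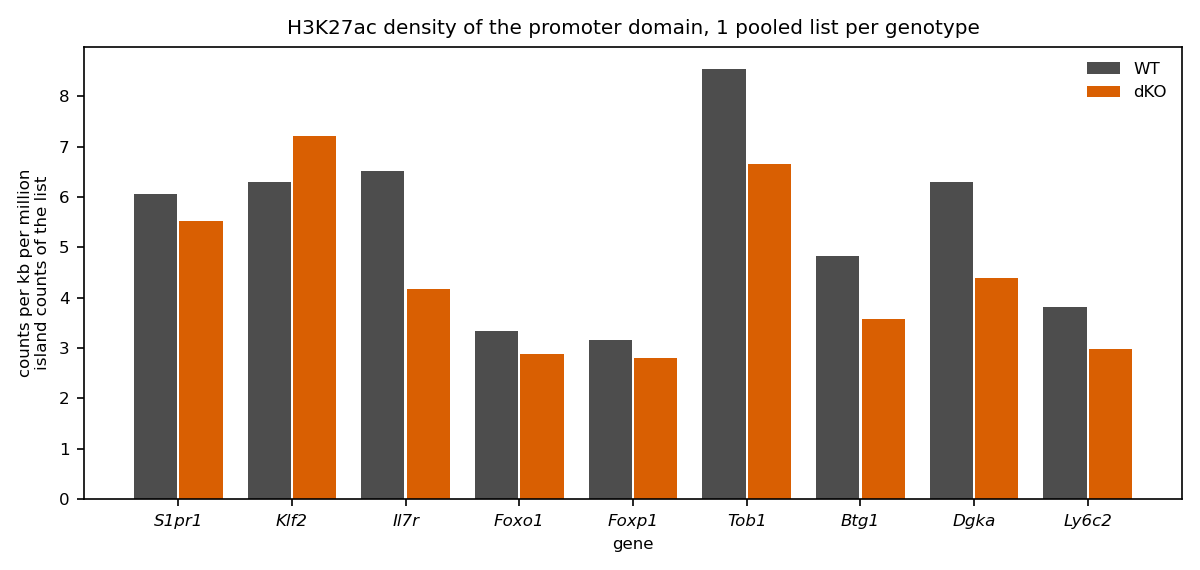
The bar chart of promoter domains gives counts per kb as CPM of the island total (vertical, from 0) for the 9 genes in WT (grey) and dKO (orange), with 1 pooled list per genotype and therefore no error bars. Klf2 is the only gene with the taller dKO bar, and Il7r shows the lowest dKO to WT ratio, -0.64 on the log2 scale.

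Promoter sequences are shown for Klf2 and Il7r, whose promoter domains had the highest and the lowest ratio per kb (0.19 and -0.64), and for Btg1, at -0.43. By the promoter islands of the window, Btg1 was at -0.64 and Il7r at -0.60 per kb, and the Btg1 value rests on the joined dKO island. They run from 250 bases before to 50 bases after the RefSeq TSS, and each matched the mm9 genome at 1 place inside its promoter domain. The motifs searched on both strands were the Tcf/Lef core (CTTTGA or CTTTGT), the forkhead core (GTAAACA), which FOXO and FOXP factors recognise, and the KLF core (CACCC). None of these contains another. Capitals mark a match.
Klf2: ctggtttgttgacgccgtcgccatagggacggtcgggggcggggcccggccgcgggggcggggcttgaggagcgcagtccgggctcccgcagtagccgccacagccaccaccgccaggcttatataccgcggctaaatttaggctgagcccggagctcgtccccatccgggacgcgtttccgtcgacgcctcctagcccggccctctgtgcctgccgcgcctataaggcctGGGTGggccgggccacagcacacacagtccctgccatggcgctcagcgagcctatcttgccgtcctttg
Btg1: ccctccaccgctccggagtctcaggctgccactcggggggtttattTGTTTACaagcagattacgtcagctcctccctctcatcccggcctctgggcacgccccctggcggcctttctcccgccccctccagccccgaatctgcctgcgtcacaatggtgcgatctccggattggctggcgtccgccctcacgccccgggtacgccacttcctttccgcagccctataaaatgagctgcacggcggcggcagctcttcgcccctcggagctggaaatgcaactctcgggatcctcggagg
Il7r: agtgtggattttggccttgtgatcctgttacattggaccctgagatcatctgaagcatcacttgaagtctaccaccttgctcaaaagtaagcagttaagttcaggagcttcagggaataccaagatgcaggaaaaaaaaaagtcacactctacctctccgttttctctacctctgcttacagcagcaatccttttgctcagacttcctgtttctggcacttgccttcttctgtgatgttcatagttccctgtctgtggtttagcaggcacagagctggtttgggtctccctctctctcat
The Klf2 promoter lies at chr8:74842711-74843010 on the plus strand, the Btg1 promoter at chr10:96079385-96079684 on the plus strand and the Il7r promoter at chr15:9459582-9459881 on the minus strand. The window of Klf2 held 1 KLF core, that of Btg1 held 1 forkhead core, and that of Il7r held none of the 3. Among 32851 RefSeq promoters of this length, 31.2% held a Tcf/Lef core, 3.65% a forkhead core and 57.5% a KLF core. The RefSeq table used here lists promoters of 8 of the 9 genes, and motifs were not searched for the other, S1pr1. A Tcf/Lef core was found for Foxp1, Dgka and Ly6c2, each in at least 1 of its promoters, and not in the windows of Klf2, Il7r, Foxo1, Tob1 and Btg1. These matches describe the letters only.

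The companion lists, made of further genes of the same pathways, had medians on both sides of 0. Among the 9 further genes of S1P signalling and egress, 4 (S1pr4, S1pr5, Sphk1 and Spns2) were called higher by window counts and 1 (S1pr3) lower, with a median of 0.39, beside 11.5% of all genes called in each direction. By region counts, the median was 0.08, and S1pr4 at 0.45 and S1pr5 at 0.25 were no longer called, beside 7.05% of all genes called higher. Sphk1 at 0.91 and Spns2 at 0.83 were still called higher by regions, but per kb Sphk1 was at -1.51, called lower, and Spns2 at 0.03. S1pr5, a receptor of natural killer and memory cells, was highest by window counts at 1.06 with 5943 and 8662 counts, and its ratio per kb was 0.13. S1pr3 was lowest at -0.77 with 1172 and 480 counts. Of 6 genes of lymph node homing, 1 was called lower. This was Ccr7, the chemokine receptor for lymph node entry, at -1.04 by window counts with 62344 and 21159 counts, at -0.52 and no longer called by region counts, and at -0.51 per kb in its promoter domain, while the integrin gene Itgal was highest at 0.26. The median of the 6 was -0.07.

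Of 7 genes that act with the interleukin-7 receptor, none was called lower and 1, Jak3, was called higher at 0.94. By window counts, 11.5% of all genes were called in each direction. By region counts Jak3 was at 0.72, beside 7.05% of all genes called higher. The median of the 7 was -0.21 by window counts. Per kb Jak3 was at 0.14. Jak1, the kinase bound by the Il7r chain itself, was lowest at -0.42. Of the 6 FOXO and FOXP paralogs, 5 had islands in both lists, with a median of 0.42 by window counts and -0.07 per kb. Foxo6 was highest at 1.58, but 0.15 per kb, and Foxo4 was lowest at -0.28. The median of 0.42 was the value of Foxp3, which was at -0.43 per kb. Foxo4 and Foxp3 lie on the X chromosome, where the median region was at -0.53. Of the 11 genes of the TOB/BTG family and CCR4-NOT complex, Btg4 was called lower at -0.95 on 1220 and 440 counts, but was at 0.09 per kb, none was called higher, and the median was -0.34. Per kb, 3 were called lower, Tob2 at -1.01, Btg3 at -0.80 and Cnot7 at -0.61, beside 9.28% of all genes. In their promoter domains these genes were at -0.32, -0.68 and -0.08 per kb. Btg2, the closest relative of Btg1, was highest at 0.13.

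Among diacylglycerol kinases, 6 of 8 had islands in both lists, with a median of 0.13. Dgkg was called higher at 0.67, but was at -0.08 per kb, and Dgkd was lowest at -0.10. Of 13 Ly6 neighbours, 11 had islands in both lists, with a median of 0.24 and 2, Ly6k and Ly6h, called higher. Ly6k was at 2.25 with 2359 counts in WT and 7849 in dKO and at 0.68 per kb, but over whole regions it was at 0.00 for counts and 0.09 per kb. Ly6h was at 1.26 by window counts and 0.92 by region counts, and at -0.44 per kb. The median by region counts was 0.10. Ly6g was lowest at -0.28 and shares all its window islands with Ly6c2. Of 12 other genes known for holding T cells quiescent, Cblb, a ubiquitin ligase that restrains receptor signals, was called lower by both measures, at -0.75 and -0.60 per kb with 41521 and 17261 counts. Tsc2, which restrains mTOR, was highest by window counts at 0.90, but was at 0.13 by region counts. Its promoter domain, narrower in dKO, was at -0.34 by counts and 0.16 per kb. The median of the list was -0.07.

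**Figure D5:**
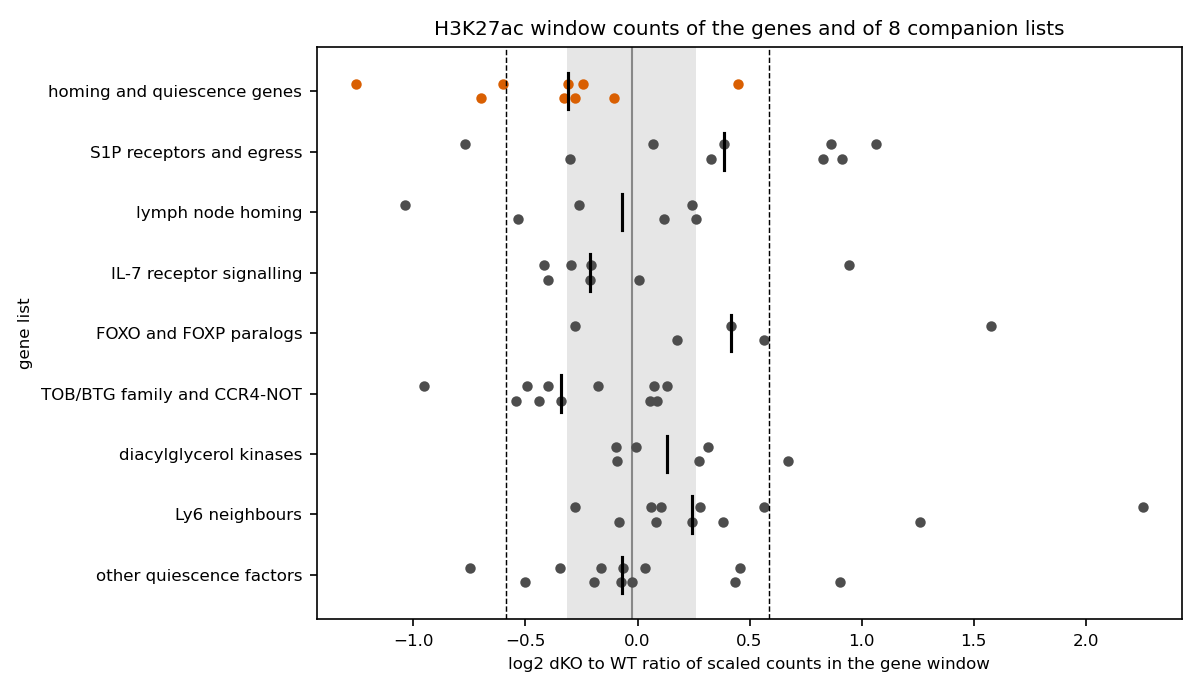
The plot of gene lists gives the log2 dKO to WT ratio of scaled window counts (horizontal) for the 9 genes (orange) and 8 companion lists (grey points, 1 per gene), with the median of each list as a black line. The grey band is the middle 50% of all protein-coding genes, and dashed lines mark a ratio of 1.5. The list medians run from -0.34 for the TOB/BTG family and CCR4-NOT to 0.42 for the FOXO and FOXP paralogs. That last median is the value of Foxp3, on the X chromosome.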

How the data were processed

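The authors aligned reads to mm9 with Bowtie2 2.2.5, kept uniquely mapped reads, merged all replicates of 1 genotype, and ran SICER 1.1 on the pool in windows of 200 bp with a gap of 400 bp. The deposited lists give the raw read counts of each island, scaled neither for depth nor for width, and a place without an island has no count. The island totals were 82668007 in WT and 57665047 in dKO. Inputs were not analysed here, and read length and duplicate removal are not given in the sources used here.

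Gene positions came from GENCODE vM1 on NCBIM37, which is mm9, and promoter sequences from RefSeq on GRCm38.p6. Start and end were counted from 0 in the lists and are given here counted from 1. Promoter islands lay within 1 kb of an annotated TSS of the gene, and promoter domains are merged regions within 1 kb of its 5′ end. Intervals are exact conditional binomial intervals at 95%, computed with SciPy 1.17.1 under Python 3.11.15. Without molecular identifiers, reads cannot be taken as independent molecules. Merging and ratios were tested on simulated data. The genes named were the 9 members, the highest and the lowest of each companion list, and any companion called the same way by counts and per kb. Other genes were named after their values were seen. These were the further genes called in the S1P, TOB/BTG and Ly6 lists, and Foxp3, Ly6e, Ly6a, Ly6i, Ly6c1 and 2010109I03Rik. A further gene of the lymph node homing list is not reported here. The members and lists were chosen with earlier results of these data known. Region sums, promoter domains and islands with matching borders were added after seeing the data.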

Additional observations from a re-analysis of the deposited data

How the results depend on the processing

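No paired analysis was possible because each genotype has 1 list of pooled replicates, and leaving out a replicate was not possible for the same reason. The median count ratio of the 9 genes, -0.31, became -0.24 when scaled to regions with islands in both lists, -0.24 with the median region ratio set to 1, -0.38 with 10 kb upstream, -0.40 with 100 kb upstream, -0.15 with islands taken in proportion to their overlap and -0.24 with whole regions. The median per kb, -0.24, became -0.17 under each of the first 2 scalings, which shift all ratios by 0.07, -0.35 in promoter domains and -0.18 over 5 islands with matching borders. The 3 genes called lower by counts became 2 under each of the first 2 scalings, where Il7r lay at -0.53, 1 with 100 kb upstream, 1 by island midpoint, 0 in proportion to overlap, 0 with whole regions, 1 in promoter domains and 1 at a ratio of 2. None was called higher by counts, against 3 by island midpoint and 1 at the lowest call ratio tried. Per kb, none was called, against 4 lower and 1 higher with 10 kb upstream, 1 higher by midpoint, 1 lower in promoter domains and 3 lower at the lowest call ratio tried. Shares of all genes called were computed only for the main setting, whole regions and promoter domains. Counts called under the other settings therefore have no background to be read against. By island midpoint, S1pr1 turned to 0.89 and Btg1 to 1.61, since their long WT islands have midpoints outside the window. With a promoter flank of 2.5 kb, the Ly6c2 promoter ratio turned from 1.83 to -0.18. Il7r stayed below 0 in all 9 planned count settings, from -0.78 to -0.43, and was called lower in 5. Klf2 ran from -0.08 with islands at other promoters left out to 1.09 by island midpoint. With islands within 1 kb joined, the windows held 37 WT and 40 dKO islands. Shared islands fell from 94.2% of WT and 88.6% of dKO member islands to 58.0% and 44.3% under 50% reciprocal overlap, beside a fall from 85.1% and 73.8% to 54.1% and 43.2% in the whole lists. Depth limits the smallest islands, such as a Foxp1 island with 219 WT and 169 dKO counts, whose interval ran from -0.15 to 0.44.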
